A study of Mus musculus with 2 samples.

Results

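Hemoglobin, the oxygen carrier of red blood cells, is built from alpha-type and beta-type globin chains, and the mouse makes different chains at different ages. The 7 globin genes described here are 3 embryonic genes, Hbb-y and Hbb-bh1 (beta-type) and Hba-x (alpha-type), and 4 adult genes, Hba-a1 and Hba-a2 (alpha-type) and Hbb-bt and Hbb-bs (beta-type), out of 32285 genes counted. Embryonic chains are made mainly by the primitive red cells that arise in the yolk sac, which also make some adult chains, whereas red cells of the fetal liver and adult marrow make the adult chains. The genes were selected on measured values: several of them led a cluster of cells in an earlier analysis of these same libraries, so that their high level in those cells is a description and not a finding.

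Single-cell RNA sequencing by the 10x Genomics 3′ method gave 2 libraries, WT and TSK, each from subcutaneous tumors grown in female C57BL/6 mice aged 6 to 8 weeks. The WT library came from wild-type mice. The TSK library came from tight skin mice, which carry a duplication within Fbn1. In both, the tumors had grown from SO cells, an ovarian cancer line of C57BL/6 origin that lacks p53 and carries Hras and Myc, and the tumors of 4 mice per genotype were pooled. Cells were treated with red blood cell lysis buffer and depleted of dead cells before loading, which bears on any count of red cells. With 1 library per genotype there is no replicate, no test between genotypes was possible, and all intervals given are exact 95% intervals that cover counting error only.

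The WT library held 21225411 unique molecular identifiers (UMIs, each counting 1 RNA molecule) in 2332 barcodes, and the TSK library 48296765 in 4436 barcodes. Barcodes with at least 200 genes, at least 500 UMIs and at most 10% mitochondrial UMIs were kept, 1693 in WT and 3216 in TSK. The barcode lists of the libraries had 263 sequences in common, and these shared barcodes are given apart from those found in a single library. Among kept barcodes, 251 in WT (14.8%) and 255 in TSK (7.93%) were shared. Their median was 961 UMIs in WT and 756 in TSK, against 7658 and 7302 in single-library barcodes. The WT shared barcodes included 32 with more than 10000 UMIs, which held 92.4% of the UMIs of that set and only 2 globin UMIs.

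The beta-type genes lie on chromosome 7 and the alpha-type genes on chromosome 11 (GENCODE M21, GRCm38), and the main protein-coding transcript of each has 3 exons. On the minus strand of chromosome 7, Hbb-bt (ENSMUSG00000073940) spans 103812524 to 103813996, Hbb-bs (ENSMUSG00000052305) 103826534 to 103828096, Hbb-bh1 (ENSMUSG00000052217) 103841637 to 103843164 and Hbb-y (ENSMUSG00000052187) 103851749 to 103853216. On the plus strand of chromosome 11, Hba-x (ENSMUSG00000055609) spans 32276400 to 32278116, Hba-a1 (ENSMUSG00000069919) 32283511 to 32284465 and Hba-a2 (ENSMUSG00000069917) 32296489 to 32297298. The order along each chromosome places the embryonic genes at one end of the group and the adult genes at the other.

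Since barcodes rich in embryonic globin and barcodes with adult globin alone were both found, promoter stretches of 1 embryonic and 2 adult genes are shown side by side. They are RefSeq sequences (GRCm38.p6), read 5′ to 3′ on the strand of the gene from 120 bases before the RefSeq start, and end where the first GENCODE exon begins. Capitals mark CACCC and CCAAT on either strand, motifs known from globin promoters. The stretches are chr7:103853217-103853327 (minus strand), chr11:32296372-32296488 (plus strand) and chr7:103813997-103814043 (minus strand), in this order.
Hbb-y: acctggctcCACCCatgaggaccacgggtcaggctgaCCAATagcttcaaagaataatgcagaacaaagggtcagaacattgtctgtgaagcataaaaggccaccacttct
Hba-a2: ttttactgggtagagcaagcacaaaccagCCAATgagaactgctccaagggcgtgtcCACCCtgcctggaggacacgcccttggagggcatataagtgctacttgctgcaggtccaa
Hbb-bt: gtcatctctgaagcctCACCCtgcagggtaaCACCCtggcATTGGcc
A 120-base window before the RefSeq start was at hand for 6 of the 7 genes, all but Hbb-bh1. Those of Hba-x, Hba-a1 and Hbb-bs begin inside a GENCODE exon and are not printed. In that of Hbb-bt only 47 bases precede an exon, so the motif counts include annotated exon sequence. Searched on both strands, CACCC was present in 6 of these 6 windows and in 31.7% of 32851 windows of the same length over all genes. CCAAT was present in 5 of 6, all but Hba-x, against 21.3% of all windows. GATAA, the core of the motif bound by GATA factors, was present in the window of Hba-x alone, against 10.5% of all windows. A match is a description of letters only. The windows of Hba-a1 and Hba-a2 were 100% identical over their overlap, and those of Hbb-bt and Hbb-bs 73.9% identical.

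Near-identical copies limit how the adult genes can be told apart. Of the 50-base stretches in the last 300 bases of the transcript, where 3′ reads fall, 80.1% for Hba-a1 also occur in Hba-a2 and 73.7% for Hba-a2 also occur in Hba-a1. The overlap between Hbb-bt and Hbb-bs was 36.3% and 36.7%. Hbb-y, Hba-x and Hbb-bh1 shared 0 such stretches with any other gene. The split between the paired adult genes is therefore uncertain, whereas the split between embryonic and adult genes is not affected by shared stretches of this length. Because each UMI stands for 1 molecule read at its 3′ end, shares of UMIs are compared between genes without a correction for length.

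Globin UMIs were concentrated in shared barcodes. Shared barcodes held 95.4% (94.9 to 95.9) of the 7097 globin UMIs of WT and 87.5% (86.7 to 88.3) of the 6296 of TSK. Hbb-y, the main embryonic beta-type chain, had 3679 UMIs in WT shared and 172 in WT single-library barcodes, and 3019 and 2 in TSK. Hba-x, the embryonic alpha-type chain, had 1890 and 85 UMIs in WT and 1512 and 0 in TSK. Hbb-bh1, the second embryonic beta-type chain, had 284 and 15 UMIs in WT and 216 and 0 in TSK. In both libraries nearly all embryonic UMIs thus lay in shared barcodes, and the TSK single-library barcodes were almost free of them.

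The adult genes were divided differently between the libraries. Hba-a1 had 433 UMIs in shared and 24 in single-library barcodes of WT, and 358 and 136 in TSK. Hba-a2 had 250 and 15 UMIs in WT and 196 and 120 in TSK. Hbb-bt, an adult beta-type chain, had 169 and 6 UMIs in WT and 145 and 108 in TSK. Hbb-bs, the other adult beta-type chain, had 68 and 7 UMIs in WT and 64 and 420 in TSK, and was the member with the most UMIs in TSK single-library barcodes although it had the fewest in shared barcodes of either library. In all, 94.7% (93.0 to 96.0) of adult globin UMIs lay in shared barcodes of WT and 49.3% (46.8 to 51.8) in TSK.

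For scale, the UMIs of a gene were also scaled to 1000000 UMIs of all genes in the same barcodes (CPM), and genes with at least 50 UMIs over the compared sets were counted as past the fold at 2-fold or more. All 7 members were past 2-fold higher in shared than in single-library barcodes of WT, where 22.3% of 12694 genes were, and of TSK, where 12.8% of 14169 genes were. The cluster that chose the genes held many of these barcodes, so nothing is read from these counts. Values in WT ran from a log2 ratio of 5.74 (4.62 to 7.11) for Hbb-bs to 7.27 (6.12 to 8.74) for Hbb-bt. In the TSK library the log2 ratio of Hbb-bs, 4.19 (3.79 to 4.58), was the smallest and that of Hbb-y, 17.47 (15.61 to 20.51), the largest of the 5 members with a UMI on both sides.

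Globin UMIs per barcode fell into separate ranges. In both libraries 98 shared barcodes had 10 or more globin UMIs, and they were the same 98 barcodes. The lowest of them had 12 globin UMIs in WT and 11 in TSK, and the highest of the other shared barcodes had 2 and 1. These 98 high-globin barcodes held 6758 of the 6773 globin UMIs of WT shared barcodes and 5505 of the 5510 of TSK shared barcodes. The other 153 barcodes kept in both libraries had 15 globin UMIs in WT and 5 in TSK. Single-library barcodes with 10 or more globin UMIs were few, 6 in WT and 2 in TSK. Per 10000 UMIs, low-globin barcodes of WT had 0.0502 (0.0281 to 0.0827) globin UMIs when shared and 0.00820 (0.00448 to 0.0138) when in a single library. In TSK the values were 0.178 (0.0577 to 0.414) and 0.00942 (0.00682 to 0.0127). The summed level was thus higher in shared low-globin barcodes of each library. The WT shared value pools unlike depths: 32 barcodes over 10000 UMIs held 2870260 of its 2990394 UMIs but 2 of its 15 globin UMIs.

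**Figure D1:**
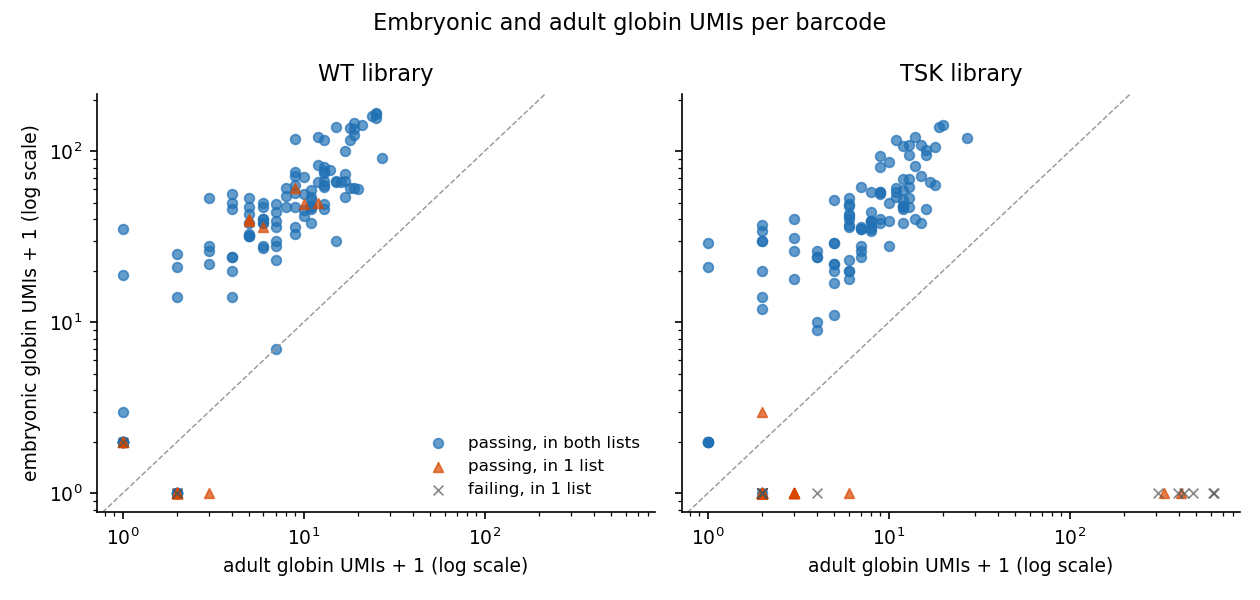
Embryonic (y axis) against adult (x axis) globin UMIs, each plus 1 on a log scale, in every barcode with a globin UMI, for the WT (left) and TSK (right) library; circles are kept shared barcodes, triangles kept single-library barcodes, crosses single-library barcodes that failed the filter, and the dashed line marks equal numbers. The high-globin shared barcodes lie above the line except 1 WT barcode on it (6 and 6 UMIs), and the TSK barcodes at the lower right have over 300 adult and 0 embryonic UMIs.

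The 98 high-globin shared barcodes carried mostly embryonic globin. Embryonic genes made up 86.5% of their globin UMIs in WT (5843 of 6758) and 86.2% in TSK (4743 of 5505). Per barcode, the embryonic share ran from 50% to 100% in WT with a median of 87.2%, and from 71.4% to 100% in TSK with a median of 85.8%. Both kinds of globin were found together in 96 of 98 barcodes in each library, and adult UMIs ranged from 0 to 26 in both. Globin made up between 0.629% and 20.6% of all UMIs of a barcode in WT (median 5.50%) and between 0.756% and 19% in TSK (median 5.31%). The barcodes were small, with medians of 1035 UMIs and 562 genes in WT and 882 UMIs and 502 genes in TSK.

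Within these barcodes the members had the same order of summed UMIs in both libraries. Hbb-y ranged from 5 to 120 UMIs per WT barcode (median 31) and from 4 to 100 per TSK barcode (median 26), and made up 54.4% and 54.8% of globin UMIs. Hba-x ranged from 1 to 59 (median 17) and from 1 to 53 (median 11.5), with shares of 27.9% and 27.4%. Both genes had a UMI in all 98 barcodes of each library. Hbb-bh1 ranged from 0 to 14 and from 0 to 9 UMIs, with a median of 2 in both, and was found in 79 WT and 75 TSK barcodes (4.19% and 3.92% of globin UMIs). Among embryonic genes, Hbb-bh1 was therefore the minor one.

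Adult genes had fewer UMIs than Hbb-y and Hba-x in the same barcodes, with Hba-a1 above and the other 3 below Hbb-bh1. Hba-a1 ranged from 0 to 16 UMIs in WT and from 0 to 13 in TSK, with a median of 3 in both and shares of 6.39% and 6.50%. Hba-a2 ranged from 0 to 10 in both, with a median of 2 and shares of 3.67% and 3.56%. Hbb-bt ranged from 0 to 7 and from 0 to 6, with a median of 1 and shares of 2.49% and 2.63%. Hbb-bs, at 0.991% and 1.14% of globin UMIs, had a UMI in only 41 WT and 39 TSK barcodes and at most 5 and 4 per barcode. The ranges of neighbouring members overlapped, and the order Hba-a1 over Hba-a2 rests on the reads that separate these copies. Alpha-type genes made up 37.9% of globin UMIs in WT and 37.5% in TSK.

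**Figure D2:**
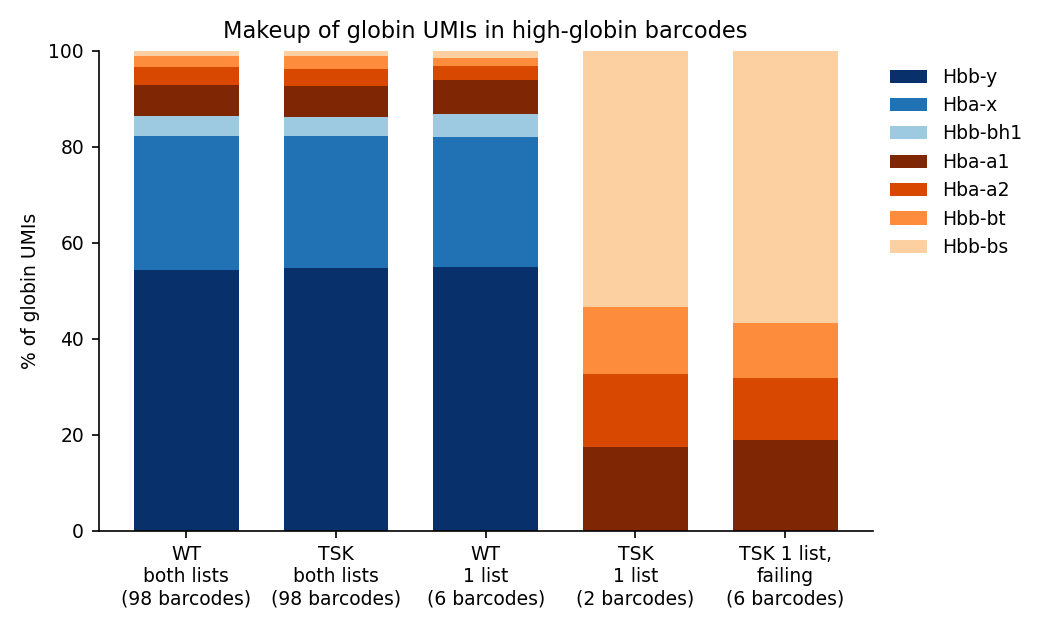
Share of each member in the globin UMIs (y axis, %) of barcodes with 10 or more globin UMIs, by library and by whether the barcode is in both lists or 1, with barcodes that failed the filter apart; blue shades are embryonic and orange shades adult genes. Hbb-y makes up 54.4% and 54.8% in the sets of 98 shared barcodes and is absent from both TSK single-library sets, where Hbb-bs is the largest part.

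The same barcode carried a like number of globin UMIs in both libraries. Over the 98 barcodes, log2 globin UMIs in WT and TSK had a Pearson correlation of 0.944 and a Spearman correlation of 0.929. As globin UMIs per 10000 UMIs, which takes out depth per barcode, the correlations were 0.953 and 0.944. UMIs of all genes per barcode had a correlation of 0.976 on the log2 scale. These are descriptions across barcodes that have the same sequence in the paired libraries. The TSK library had fewer globin UMIs in 83 of the 98 barcodes, the same number in 3 and more in 12, and fewer UMIs of all genes in 95 of 98. Its total was 0.815 of the WT total for globin and 0.850 for all genes.

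Other measures had lower correlations between the paired barcodes. The embryonic share of globin had a Pearson correlation of 0.318 between libraries, with a median absolute difference of 3.93 percentage points and a largest difference of 25. Over 32272 genes outside the globin family, the median correlation between the profiles of a barcode in WT and TSK was 0.460, against 0.440 between different barcodes. In 7 of 98 cases the most similar TSK profile was that of the same barcode. Counting error limits both measures. The shares rest on medians of 8 adult globin UMIs per barcode in WT and 7 in TSK. The profiles rest on medians of 1035 and 882 UMIs of all genes. How far the paired barcodes differ beyond counting error was not tested. Whether shared barcodes hold the same cells, the same molecules or different cells was not tested, since the deposited counts give no reads.

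**Figure D3:**
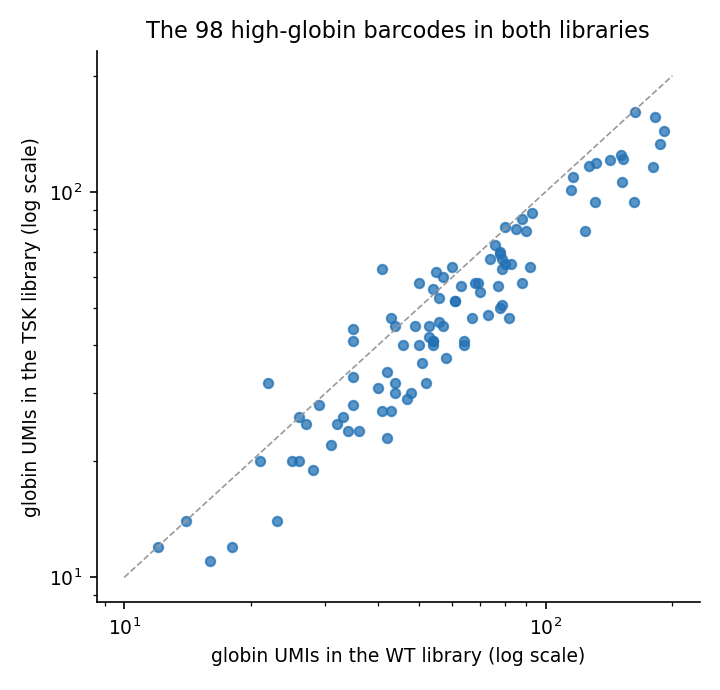
Globin UMIs of the 98 high-globin shared barcodes in WT (x axis) and TSK (y axis), both on log scales, 1 point per barcode; the dashed line marks equal numbers. The points follow the line with most (83 of 98) below it, from 12 to 191 UMIs in WT and from 11 to 161 in TSK.

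Between the libraries, no member differed in the 98 barcodes beyond its counting interval. The 98 sequences are the same in both libraries and their UMI numbers are correlated, so these ratios are not a comparison of genotypes. The intervals treat the paired counts as independent. Log2 ratios of TSK over WT CPM ran from -0.15 (-0.42 to 0.11) for Hbb-bh1 to 0.15 (-0.37 to 0.66) for Hbb-bs. Hbb-y had 31695 CPM in WT and 30614 in TSK, with a log2 ratio of -0.05 (-0.12 to 0.02). The 3 embryonic genes together gave -0.07 (-0.12 to -0.01), an interval that leaves out 0 but ignores the pairing, and the 4 adult genes -0.03 (-0.17 to 0.11). Over all kept shared barcodes the ratio for embryonic genes was 2.73 (2.67 to 2.78), but it turned to -0.21 (-0.27 to -0.16) once barcodes with more than 10000 UMIs or genes were left out. The 32 WT shared barcodes above that limit hold most UMIs that the WT level is divided by.

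The members with the most UMIs varied together among the high-globin barcodes, the rarer ones less so. As UMIs per 10000, Hbb-y and Hba-x had a Pearson correlation of 0.83 over the 98 WT barcodes. Hbb-y had 0.50 with Hbb-bh1, 0.63 with Hba-a1, 0.30 with Hbb-bt and 0.17 with Hbb-bs, the member with the fewest UMIs. Correlations between rarer members came near 0, such as Hbb-bh1 with Hbb-bs (0.04 in WT and 0.03 in TSK) and Hba-a2 with Hbb-bt in WT (0.09, against 0.37 in TSK). Summed embryonic and summed adult globin had 0.71 in WT and 0.68 in TSK. The points share a library, and the rarer genes had only a few UMIs per barcode.

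Single-library barcodes with 10 or more globin UMIs differed in kind between the libraries. The 6 in WT had 68, 60, 57, 43, 42 and 40 globin UMIs among 518 to 662 UMIs of all genes. Their embryonic share was 86.8% (82.5 to 90.3; 269 of 310 UMIs), with single barcodes from 81.7% to 90.7%, within the range of the 98 shared barcodes. The smallest barcodes deposited for either library had 500 UMIs. The 2 in TSK had 411 and 332 globin UMIs among 1054 and 1042 UMIs and all were adult. Embryonic UMIs were at 0 of 743 in these barcodes.

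Makeup also differed among the adult genes. In the TSK pair of barcodes Hbb-bs had 217 and 179 UMIs, Hbb-bt 73 and 32, Hba-a1 71 and 58 and Hba-a2 50 and 63. Hbb-bs thus exceeded Hbb-bt in both, whereas Hbb-bt exceeded Hbb-bs in the summed 98 shared barcodes of each library (168 against 67 UMIs in WT and 145 against 63 in TSK). Both TSK barcodes had few genes, 227 and 219, and lay just above the minimum of 200 genes. A further 6 TSK single-library barcodes with 10 or more globin UMIs had fewer genes than that minimum and failed the filter. They had 305 to 628 globin UMIs each, all adult, with 1615 UMIs of Hbb-bs and 326 of Hbb-bt in sum. The failing single-library barcodes of WT had 3 globin UMIs in all.

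Across all kept single-library barcodes, the embryonic share of globin UMIs was 84.0% (79.5 to 87.8; 272 of 324) in WT and 0.254% (0.0308 to 0.916; 2 of 786) in TSK. Of the 6 members with enough UMIs, the 4 adult genes were past 2-fold higher in TSK, where 19.7% of 15106 genes were, and Hbb-y and Hba-x past 2-fold lower, where 17.1% were. The log2 ratio of adult globin was 2.49 (2.09 to 2.93). Without the 6 and 2 high-globin barcodes it was 0.48 (-0.51 to 1.59). Hbb-bs alone was still at 2.17 (0.16 to 5.29) without them, with 24 UMIs in TSK and 2 in WT. Embryonic globin without them came to 3 UMIs in WT and 2 in TSK.

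Tumor cells of the line carried next to no globin. Cells were clustered without the globin genes and named by marker genes, and cells with the markers of the SO line (among them Lgals7, Cdkn2a and Hmga2) are called cancer-like. In single-library cancer-like cells, globin had 1 UMI in 139 WT cells, or 0.281 CPM (0.00711 to 1.57). In the TSK library 758 UMIs lay in 1427 cancer-like cells, but 743 of them were those of the 2 adult-globin barcodes above, which the clustering had placed among cancer-like cells of low depth (median 821 UMIs). Without them, 15 UMIs remained in 1425 cells, or 0.417 CPM (0.234 to 0.689), with at most 1 per cell. All of the globin UMIs in cancer-like single-library cells were adult. A globin UMI was found in 0.719% (0.0182 to 3.94) of WT and 1.05% (0.590 to 1.73) of TSK cancer-like cells, at medians of 17159 and 22044 UMIs per cell.

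Other cell classes also had few globin UMIs, but several had a higher level per UMI of all genes than cancer-like cells. In TSK the CPM intervals of endothelial-like, macrophage-like, lymphocyte-like and neutrophil-like cells lay above that of cancer-like cells. Depth differed, with medians of 22044 UMIs in cancer-like, 2629 in lymphocyte-like and 1951 in neutrophil-like TSK cells. The share of TSK cells with a globin UMI was 1.26% in macrophage-like, 0.897% in neutrophil-like (2 cells) and 0.826% in lymphocyte-like cells (3 cells). It was 1.05% in cancer-like and 2.78% (0.338 to 9.68) in endothelial-like cells, so only the CPM set most of these classes apart. Without high-globin barcodes, endothelial-like cells had 4.04 CPM (1.31 to 9.43; 5 UMIs in 74 cells) in WT and 9.34 CPM (3.75 to 19.2; 7 UMIs in 72 cells, 5 of them in 1 cell) in TSK. These were the highest point values among the named classes, with intervals that overlapped those of macrophage-like and neutrophil-like cells in both libraries. Macrophage-like cells had 0.659 CPM (0.136 to 1.93) and 2.85 CPM (1.36 to 5.23). Neutrophil-like cells had 0 UMIs in WT and 6.41 CPM (1.32 to 18.7) in TSK. Lymphocyte-like cells had 0.541 CPM (0.0655 to 1.95) and 4.79 CPM (1.56 to 11.2), fibroblast-like cells 0.293 and 1.09 CPM. Pericyte-like cells had 0 globin UMIs in both libraries, which allows up to 8.96 CPM in WT and 3.23 CPM in TSK. Over all low-globin single-library barcodes the level was 0.00820 globin UMIs per 10000 in WT (14 UMIs) and 0.00942 in TSK (43 UMIs), of which Hbb-bs gave 24. At 0 to 5 UMIs per cell, free RNA taken up by droplets and globin RNA of the cell itself cannot be told apart.

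**Figure D4:**
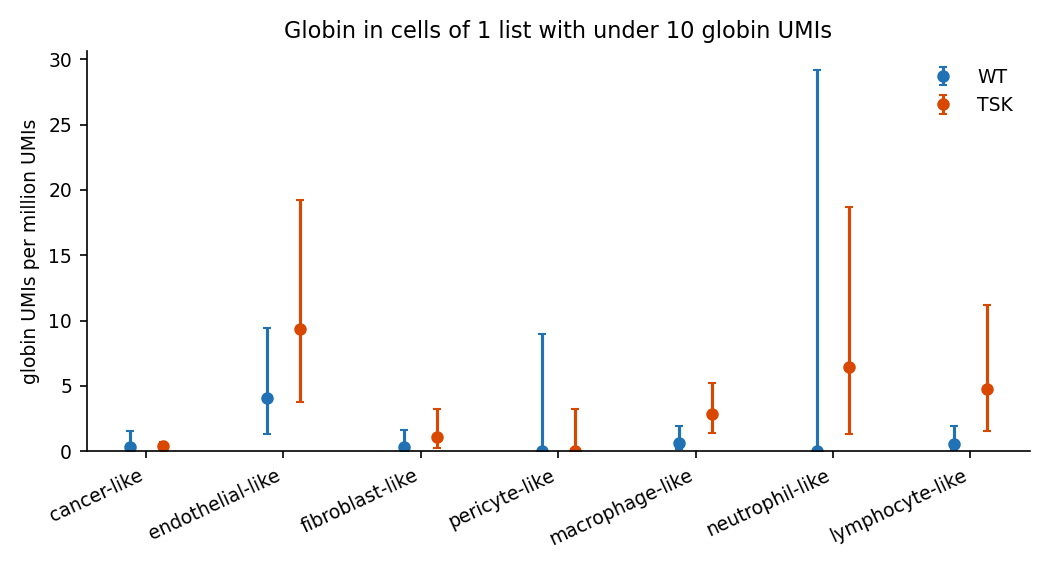
Globin CPM of the 7 genes (y axis) in single-library cells with under 10 globin UMIs, by named cell class (x axis) for WT (blue) and TSK (orange); points are the summed level and bars exact Poisson 95% intervals. Cancer-like cells sit at 0.281 and 0.417 CPM, and classes with few UMIs, such as WT neutrophil-like cells, have wide intervals.

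When globins were left out of the clustering, no cluster met the requirement for red blood cell-like cells. Of the 204 high-globin barcodes, 201 fell in an unnamed cluster of 412 barcodes (379 of them shared) led by Mdk, Nnat, Cdkn1c, Crabp1 and Crabp2. Red cell genes were also counted directly in the 98 shared high-globin barcodes. Of 9 red blood cell markers other than globins in the table, 3 had a UMI in the 98 WT and 5 in the 98 TSK shared barcodes. Slc4a1, the anion exchanger band 3, had 2 and 2 UMIs. Alas2, the erythroid enzyme that starts heme synthesis, had 3 and 2. The erythroid regulator Gata1 was at 0 in both, where a count of 0 allows up to 31.8 CPM in WT.

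Among heme synthesis and chaperone genes, 5 of 9 with at least 20 UMIs were 2-fold or more higher in WT high-globin shared barcodes than in low-globin single-library barcodes, against 20.8% of 12140 genes with at least 50 UMIs, and 6 of 10 in TSK, against 14.5% of 14100, while 2 were 2-fold or more lower in each. The low-globin shared barcodes of at most 10000 UMIs had 4 of 9 higher in WT and 5 of 10 in TSK against the same single-library barcodes. All 7 globin genes were past that fold in both, as their choice fixes. Urod had 12 and 9 UMIs (103 and 91.3 CPM against 11.1 and 15.5), and Alad 10 and 13. Uros, with 2 and 1 UMIs, and Ppox, with 3 and 3, are among the heme genes counted as higher in each library. Their intervals include 0 in both. Of 16 erythroid and globin-switching regulators, 9 had a UMI in each library, and of those with enough UMIs 7 of 12 in WT and 5 of 11 in TSK were 2-fold or more higher and 3 and 5 lower. The WT count includes Tal1 with 2 UMIs and Nfe2 and Lin28b with 1 each, whose intervals include 0. The TSK count includes Myb with 1 UMI and Lin28b with 2, whose intervals also include 0. Igf2bp3, an RNA-binding protein of fetal tissue, had 11 and 13 UMIs. Bcl11a, which represses embryonic globins, had 5 and 10, and Sox6, which acts with it, 5 and 0. Klf1, an activator of adult beta-globin, had 0 and 1. Among other globin genes, Hbq1b (theta) had 2 UMIs in each library, and the 5 others in the table were at 0. In the low-globin shared barcodes of at most 10000 UMIs, 4 of 11 regulators were 2-fold or more higher in each library. There 6 were lower in WT and 3 in TSK. The 121 such WT barcodes had 6 UMIs of Bcl11a, 3 of Sox6 and 6 of Igf2bp3. The CPM intervals of these genes overlapped those of the WT high-globin shared barcodes. In TSK, all 157 low-globin shared barcodes had 17.8 CPM (5.77 to 41.4) of Bcl11a, against 101 CPM (48.7 to 187) in the high-globin ones.

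Genes of embryonic tissue had far more UMIs in the same barcodes than red cell genes had. Mdk, a growth factor of the embryo, had 275 UMIs in 88 of 98 WT and 236 in 84 of 98 TSK barcodes, or 2371 and 2395 CPM, against 8.03 and 4.29 CPM in low-globin single-library barcodes. Nnat, an imprinted gene of developing tissue, had 147 and 124 UMIs, and Crabp1, which binds retinoic acid, 71 and 58. Of 8 such genes with enough UMIs, 7 were 2-fold or more higher in WT, against 20.8% of 12140 genes with at least 50 UMIs. In TSK it was 8 of 9, against 14.5% of 14100, and Afp was at 0 in both. Mdk, Nnat and Crabp1 also led the cluster that held most high-globin barcodes, so nothing is read from these counts. Mdk was not restricted to high-globin barcodes: low-globin shared barcodes of at most 10000 UMIs had 1615 CPM in WT (a UMI in 80 of 121) and 1348 CPM in TSK (79 of 154). The mice were labelled female, yet the Y-linked genes Eif2s3y and Kdm5d had 3 and 2 UMIs in WT and 2 and 2 in TSK high-globin shared barcodes, against 0 and 1 in all low-globin single-library barcodes of each library. The Y-linked gene Uty had 0 UMIs in WT and 2 in TSK high-globin shared barcodes, against 4 and 2, and Ddx3y 0 in both, against 3 and 4. Y-linked UMIs were not restricted to high-globin barcodes. The 121 WT low-globin shared barcodes of at most 10000 UMIs had 5 of Eif2s3y, 3 of Kdm5d, 5 of Uty and 3 of Ddx3y. Xist, expressed from the inactive X chromosome, had 112 and 162 CPM in the high-globin shared barcodes, against 536 and 687 CPM in low-globin single-library barcodes. The same 121 WT low-globin shared barcodes had 191 CPM (121 to 287) of Xist. That interval overlaps the 59.7 to 192 CPM of the WT high-globin shared barcodes. The part of such other material in the globin values was not tested.

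The adult-globin barcodes of TSK carried other genes. In the 2 kept barcodes Alas2 had 12 UMIs and Slc25a37 (mitoferrin 1, which brings iron into mitochondria) 5, and in the 6 that failed the filter Alas2 had 20, Fech (the last enzyme of heme synthesis) 8 and Slc25a37 6. Alas2 had a UMI in each of these 8 barcodes, against 2 of the 98 TSK shared barcodes. All 9 embryonic tissue genes were at 0 in both sets. The 6 WT single-library barcodes, in contrast, had 13 UMIs of Mdk, 4 each of Nnat and Crabp1 and 0 of Alas2.

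**Figure D5:**
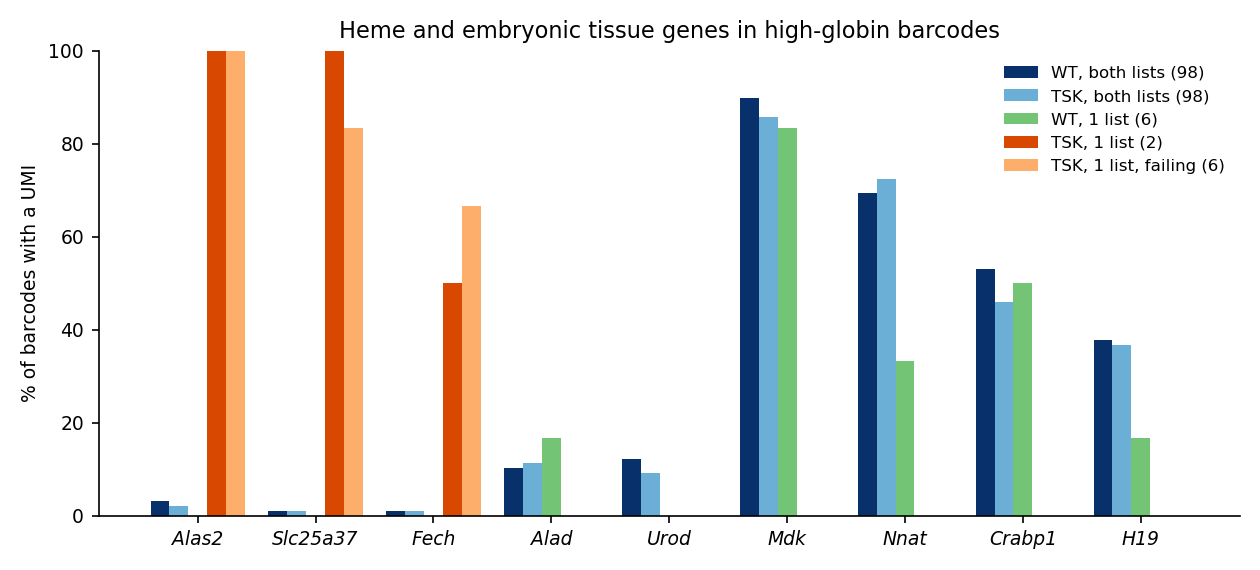
Share of high-globin barcodes with at least 1 UMI (y axis, %) for 5 heme genes and 4 embryonic tissue genes (x axis), by library and set, with the number of barcodes in the legend. Alas2 is found in all of the 2 kept and 6 failing TSK single-library barcodes, which lack Mdk, whereas Mdk is found in 88 of 98 WT and 84 of 98 TSK shared barcodes, few of which have Alas2.

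The genes most like the summed embryonic globins over 34 strata of cluster, library and sharing, by Pearson correlation of log2(CPM + 10) among 13667 genes, were Barx1 (0.997), Bex2 (0.992), Igf2 (0.974), 6330403K07Rik (0.974) and Crabp1 (0.965). For the summed adult globins they were Mylpf (0.896), Igfbp2 (0.888), Igf2 (0.887), Robo2 (0.883) and Crabp2 (0.852). Each of these genes was highest in a stratum of the unnamed cluster that held the high-globin barcodes, and the correlations rest on those few strata. The strata share libraries and differ widely in depth.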

How the data were processed

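UMI counts per gene and barcode were used as the authors deposited them: raw counts, made with Cell Ranger (version 7.1.0 per the file headers, 7.1.1 per the submitters' processing notes, build mm10), which counts only reads assigned to a single gene. The study's lower limits and mitochondrial limit on barcodes were applied, its upper limits only as an alternative. Doublets were not removed. UMIs were summed per set, with exact binomial, Poisson and conditional intervals (scipy 1.17.1), and 0 counts were read as allowing up to the upper end of the Poisson interval. Cells were clustered (2000 variable genes, 30 principal components, 20 neighbours, Leiden resolution 1, leidenalg 0.10.2) without 18 globin-family and sex-linked genes, and named where at least 3 markers of a type each reached 10% of its cells and 2-fold of the median cluster. Gene positions came from GENCODE M21 (99.8% of identifiers matched, 7 of 7 globin genes). The named genes are the 7 globins, fixed lists with their members of most UMIs (some are not reported here), and the 5 genes most like each globin sum. Genes, lists and marker sets were chosen with earlier results of these data known. Alternatives were other limits on barcodes, other definitions of shared and high-globin, beta-type genes alone and other assignments of cells; 2 were added after seeing the data.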

Additional observations from a re-analysis of the deposited data

Results flagged for a closer look

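Adult globin outside the kept barcodes: TSK single-library barcodes that failed the filter held 2863 adult and 0 embryonic globin UMIs, against 2 adult and 1 embryonic in those of the WT library. The result stands out because these barcodes lie outside the kept ones on which the main values rest. Of these UMIs, 2847 lay in 6 barcodes of 155 to 184 genes, under the minimum of 200.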

How the results depend on the processing

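Of 75 values under 14 alternatives, 50 stayed within the counting interval of the reported value. With beta-type genes only, the embryonic share in shared barcodes was 94.4% (WT) and 93.9% (TSK), in WT single-library barcodes 93.5%, and per high-globin barcode 95% and 94.4%; the share of TSK globin in shared barcodes was 86.7%, cancer-like cells had 0 and 0.142 globin UMIs per 10000, and the log2 ratio of adult globin in single-library barcodes was 3.92. Without high-globin barcodes, the embryonic shares were 66.7% and 80.0% in shared and 21.4% and 4.65% in single-library barcodes (WT and TSK), the log2 ratios 0.48 (adult) and 2.09 (embryonic, shared), and TSK cancer-like cells fell from 0.211 to 0.00417 globin UMIs per 10000, an alternative chosen after seeing the data. With no filter, 60.2% of TSK globin lay in shared barcodes and the adult log2 ratio was 4.67. With upper limits of 10000, cancer-like cells had 0.0612 (WT) and 4.40 (TSK), since most of their UMIs lay above the limit, and the log2 ratios were 3.61 (adult) and -0.21 (embryonic, shared), the second a change of sign. TSK cancer-like cells had 0.00376 when each barcode was assigned alone and 4.99 with equal weight per cell. Counting barcodes as shared only when kept in both libraries gave 2.90 for embryonic globin; unless a value above shows it, the cause was not tested. Cancer-like cells with up to 20% mitochondrial UMIs were not run. No paired analysis was possible because each genotype has 1 library. Depth limits every count under about 10 UMIs, and differences between mice cannot be told from those between pools.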
